A study of Mus musculus with 4 samples.

Results

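Genes of the mitochondrial respiratory chain and ATP synthase were examined in the dentate gyrus (DG) of mice after repeated electroconvulsive stimulation (ECS) or chronic fluoxetine. The genes were taken by name alone. A probe set counted when its single gene symbol began with Nduf, Sdha to Sdhd, Uqcr, Cox4 to Cox8 or Atp5, or was Cycs or Cyc1. The array carries 89 such genes, and 85 of them reached 50 in mean signal across the 4 arrays, among 7935 genes in all that passed this floor. Grouped by name, they comprised 39 genes of complex I, 7 of complex II, 9 of complex III, 12 of complex IV, 17 of complex V and the cytochrome c gene. Ndufa4 was thereby counted with complex I. Of the 85 genes 77 encode subunits and 8 assembly factors.

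The 4 groups were C57Bl/6 mice. The mice were male and 8 weeks old when obtained, per the study's methods for its wild-type animals. The ECS group received 11 bilateral shocks through ear clips under isoflurane anaesthesia, given 4 times a week for 3 weeks, and the sham group was treated alike but received no shock. The fluoxetine group drank fluoxetine, a selective serotonin reuptake inhibitor (SSRI), at 22 mg/kg per day with saccharin for 28 days, and the vehicle group was its untreated control. The sample labels give 6 h after the last session for the sham and ECS arrays, whereas the study's methods give the next day. The fluoxetine-treated mice (n = 3) had been selected for small frequency facilitation at the mossy fibre synapse. The DG was dissected from slices, the RNA of a group was pooled, and each pool was hybridised to 1 Affymetrix mouse genome 430A 2.0 array. There are therefore no replicates, and no difference below carries an SD, an interval or a p-value. The ECS and fluoxetine comparisons share no array.

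The respiratory chain sits in the inner mitochondrial membrane. Complex I takes electrons from NADH and complex II takes them from succinate. Both pass them through ubiquinone to complex III, from which cytochrome c, a small soluble protein, carries them to complex IV, where oxygen is reduced. Complexes I, III and IV pump protons, and complex V, the ATP synthase, uses the proton gradient to make ATP. Most subunits are encoded in the nucleus and are the genes measured here, while a few core subunits are encoded in mitochondrial DNA and are not part of this set. Neurons depend on this pathway for most of their ATP. Nuclear genes of the chain are known targets of the transcription factors NRF1, GABP, YY1 and Sp1.

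Promoter windows from RefSeq, 250 bases before to 50 after an annotated start site in GRCm38.p6, were found for 71 of the 85 genes (76 windows). The motifs of these 4 factors were searched on both strands. The NRF1 motif GCGCATGCG was in 13.2% of the windows of respiratory chain genes, against 3.78% of the windows of all genes past the signal floor and 2.35% of the windows of all protein coding genes. The YY1 motif AAGATGGCG was in 7.89%, against 3.11% and 1.83%. The ETS motif CCGGAAGT, the kind bound by GABP, was in 6.58% against 8.19% and 5.15%, and the Sp1 motif GGGGCGGGG was in 14.5% against 22.3% and 15.4%. These are counts of letters and not of bound sites. The 3 windows below are shown because they belong to genes described below and hold the NRF1 or YY1 motif, the pair more frequent among these genes than among both backgrounds. Capitals mark the motif, each window is written on the strand of the gene, and positions count the bases from the start site to the first base of the motif. The Cycs window (chr6:50566520-50566819, minus strand) holds the NRF1 motif on the opposite strand, starting at position -61 from the start site. The Cox6a1 window (chr5:115348909-115349208, minus strand) holds it on both strands, overlapping, from position -162. The Ndufs7 window (chr10:80249199-80249498, plus strand) holds the YY1 motif from position 25, just after the start site.
Cycs: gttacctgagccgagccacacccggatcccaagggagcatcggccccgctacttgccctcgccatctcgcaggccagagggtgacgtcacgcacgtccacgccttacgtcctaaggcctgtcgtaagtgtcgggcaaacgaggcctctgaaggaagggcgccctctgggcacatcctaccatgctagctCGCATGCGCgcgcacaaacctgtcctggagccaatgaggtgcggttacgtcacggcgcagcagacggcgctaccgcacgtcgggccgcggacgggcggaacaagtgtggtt
Cox6a1: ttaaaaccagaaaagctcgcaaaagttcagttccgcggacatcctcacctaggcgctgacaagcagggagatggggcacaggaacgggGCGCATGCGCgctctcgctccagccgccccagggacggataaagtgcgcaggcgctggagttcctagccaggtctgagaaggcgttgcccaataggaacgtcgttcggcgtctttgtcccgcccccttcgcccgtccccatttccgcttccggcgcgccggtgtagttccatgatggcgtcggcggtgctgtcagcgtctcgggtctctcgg
Ndufs7: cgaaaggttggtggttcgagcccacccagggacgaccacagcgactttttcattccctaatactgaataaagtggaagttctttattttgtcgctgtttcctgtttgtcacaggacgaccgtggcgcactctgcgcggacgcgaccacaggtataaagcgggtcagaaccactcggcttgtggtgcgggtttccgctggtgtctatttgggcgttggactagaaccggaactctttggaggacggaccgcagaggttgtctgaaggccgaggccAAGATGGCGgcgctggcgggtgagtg

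The 10 genes whose window held the NRF1 motif had a median log2 ratio of 0.08 for ECS and 0.05 for fluoxetine. The 61 genes with a window and no match had 0.11 and 0.03. For YY1 the medians were 0.06 and 0.06 over 6 genes with the motif, against 0.11 and 0.04 over 65 without. For ETS they were 0.18 and -0.02 over 5 genes, against 0.10 and 0.04 over 66. For Sp1 they were 0.04 and -0.02 over 11 genes, against 0.11 and 0.04 over 60. These differences were not tested.

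The values are MAS5 signal intensities, which had not been brought to a common level: the median signal of probe sets past the floor was 236.45 for sham, 219.3 for ECS, 335.05 for vehicle and 365.35 for fluoxetine. Each array was therefore centred on its own median log2 signal, and "log2 ratio" below means the centred log2 ratio of treated to control signal, from the brightest probe set of a gene. The respiratory chain genes were bright. Their median signal was 1935.4 with sham, 1966.1 with ECS, 2684.1 with vehicle and 3045 with fluoxetine, no gene had a signal of 0, and 73 of the 85 had a mean signal of at least 1000. Since 1497 of all genes reached 1000, these are used as a second background and called bright genes. The only difference between pools without shock or fluoxetine, called untreated pools below, is that between sham and vehicle. The sham mice had the anaesthesia and handling of the ECS mice, so this difference is not one between arrays alone. The scaled median absolute deviation of the sham to vehicle log2 ratio over the 85 genes was 0.13. By the same measure the 85 genes spread by 0.13 with ECS and by 0.13 with fluoxetine, while bright genes spread by 0.20 and 0.21 and, between the untreated pools, by 0.14.

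Few genes of the respiratory chain differed in size from their control by much. With ECS, 0 of 85 genes were higher and 0 lower at 1.5-fold, against 5.34% higher and 4.18% lower over all genes. Of the 1497 bright genes 57 were higher and 15 lower at 1.5-fold with ECS, and 65 and 33 with fluoxetine. With fluoxetine 1 gene, Ndufb1, was higher and 1, Cox6a2, was lower at 1.5-fold, against 5.82% and 5.13% over all genes. Both were among the 4 genes of the set with a mean signal under 200. The same genes passed the size rule for fluoxetine with deposited and with quantile-normalised signals, and none did with ECS.

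Within these limits most of the ratios for ECS were positive. The log2 ratio was above 0 for 65 of the 85 genes with ECS, against 51.8% of all genes and 59.4% of bright genes, and the median was 0.09 against 0.01 and 0.05. With fluoxetine it was above 0 for 49 genes, against 49.2% and 51.2%, and the median was 0.02 against -0.01 and 0.01. The size of the ECS median depended on the scaling. It was 0.02 with 50 genes above 0 after quantile normalisation, where bright genes had a median of -0.01, and it was -0.02 with 36 genes above 0 in the signals as deposited, where all genes had a median of -0.10 and bright genes one of -0.06. The median of the set lay above that of bright genes by 0.04, which centring cannot alter, and by 0.03 after quantile normalisation. For fluoxetine the deposited signals gave 75 genes above 0 and a median of 0.15, where all genes had 0.12 and bright genes 0.13.

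At the smaller size of 1.2-fold, 8 genes were higher and 1 lower with ECS, against 18.7% and 16.1% of all genes and 14.8% and 6.81% of bright genes. With fluoxetine 7 genes were higher and 3 lower, against 18.3% and 18.7% of all genes and 15.4% and 12.2% of bright genes. Sham and vehicle differed 1.2-fold in either direction in 4 of the 85 genes, against 21.9% of all genes and 7.75% of bright genes. The 8 genes that were higher with ECS were Ndufaf5, Ndufv3, Ndufa1, Ndufb1, Sdhc, Sdhaf4, Atp5md and Atp5o, and the 1 that was lower was Ndufs7. With fluoxetine the 7 were Ndufb1, Ndufa9, Ndufa10, Sdhaf2, Cycs, Atp5g1 and Atp5o, and the 3 that were lower were Cox6a2, Cox8c and Ndufa5. Ndufb1 and Atp5o were the 2 genes on both lists. In the deposited signals, without centring, ECS gave 1 gene higher and 2 lower, and fluoxetine 19 and 1.

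**Figure D1:**
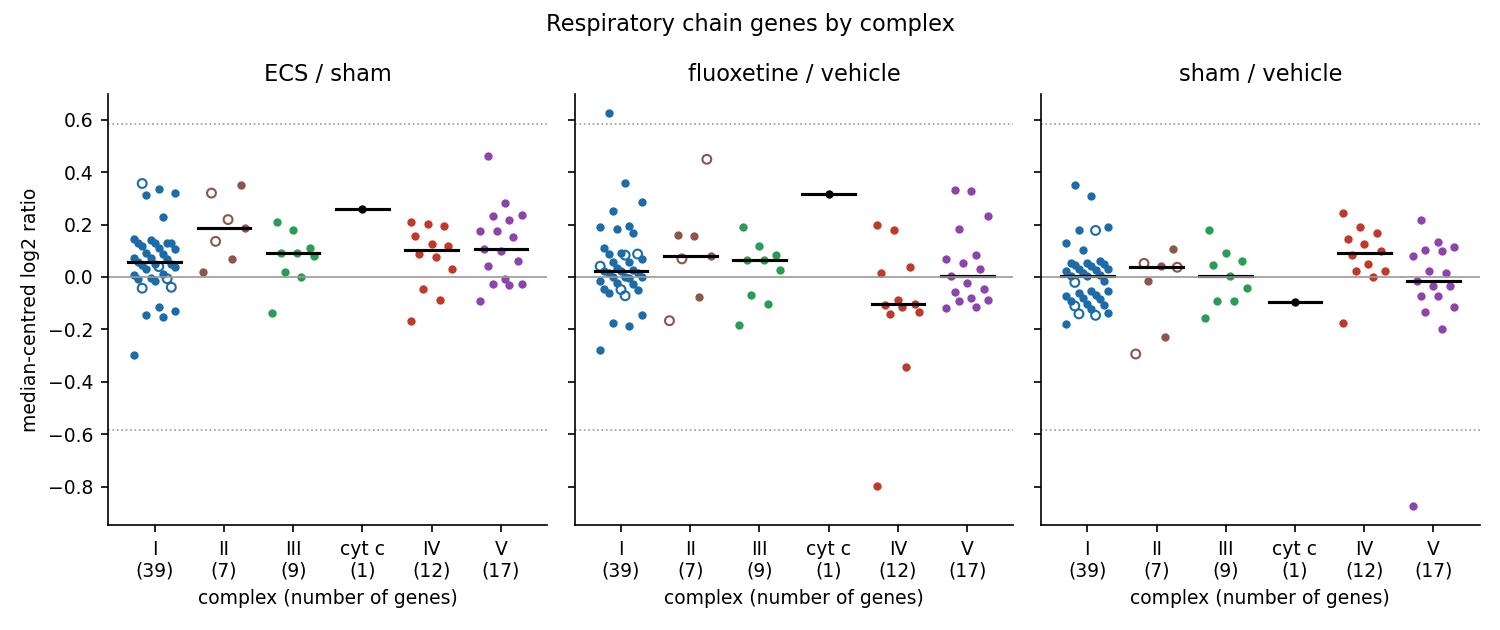
Centred log2 ratio of each of the 85 respiratory chain genes (points; open points, assembly factors) by complex for ECS over sham, fluoxetine over vehicle and sham over vehicle, with the median of each complex as a bar and 1.5-fold as dotted lines. Of the 85 points 76 with ECS and 75 with fluoxetine lie within 1.2-fold of the control, the medians for ECS run from 0.06 to 0.26, and the complex IV median is 0.10 with ECS and -0.10 with fluoxetine. With signals as deposited, the ECS medians of complexes I, III, IV and V lie between -0.05 and 0.00.

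Complex I had the most genes and ratios close to 0, with a median log2 ratio of 0.06 for ECS and 0.02 for fluoxetine over 39 genes. The ECS median was 0.00 after quantile normalisation and -0.05 in the deposited signals, where that of all genes was -0.10. Ndufb1, an accessory subunit of the membrane arm, had signals of 130.4 in the sham pool, 150.3 with ECS, 163.2 with vehicle and 274.5 with fluoxetine. Its centred level was higher on both treated arrays than on both control arrays, with log2 ratios of 0.31 and 0.63 (1.24-fold and 1.54-fold), and the gap between the groups was the widest of the set at 0.31. Its signal was low and 1 probe set measured it, so that it is less precise than most of the set.

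Ndufs7, the subunit that carries the iron-sulphur cluster next to the ubiquinone site, showed the opposite. Its signals were 1775.4 with sham, 1340.1 with ECS, 2424.8 with vehicle and 2343.6 with fluoxetine, and its log2 ratios were -0.30 and -0.17. After centring both treated arrays lay below both controls. The second probe set of Ndufs7 had ratios of 0.00 and -0.08, so the size of the ECS difference was seen by only 1 of its 2 probe sets. With 0.13 between sham and vehicle, the centred ECS level of the second probe set lay above that of vehicle.

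Ndufa1, a small accessory subunit, had signals of 4460.1, 5166, 5889 and 6735.7 in the order sham, ECS, vehicle and fluoxetine. Its log2 ratios were 0.32 for ECS and 0.07 for fluoxetine, so that its ECS level stood apart from the other 3. Ndufa9, an accessory subunit near the ubiquinone site, had 1468.6, 1416.1, 1823.1 and 2550.7 in the same order, with ratios of 0.06 and 0.36, and here the fluoxetine level stood highest. Its log2 ratio of sham to vehicle was 0.19. Ndufa4, which bears a complex I name but is now known as a subunit of complex IV, had ratios of 0.11 and 0.00.

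The other complex I genes past 1.2-fold in a comparison, named after their values were seen, were Ndufv3 with log2 ratios of 0.33 and 0.03 for ECS and fluoxetine, the assembly factor Ndufaf5 with 0.36 and 0.04, Ndufa10 with 0.03 and 0.29, and Ndufa5 with -0.12 and -0.28. For Ndufa10 the log2 ratio of sham to vehicle was 0.35, larger than its ratio in either comparison. The core subunits Ndufs1, Ndufs3, Ndufs7, Ndufs8, Ndufv1 and Ndufv2 of the matrix arm, the part that holds the flavin and the iron-sulphur clusters, were also looked at as a group, chosen after the values had been seen. With ECS 4 of the 6 were below 0 and their median log2 ratio was -0.14. The 28 other subunits with an Nduf name, Ndufa4 among them, had a median of 0.09, and 24 of these were above 0. With fluoxetine the medians were -0.04 and 0.03. Other probe sets of the core genes differed in sign: Ndufv1 had -0.13, 0.11 and -0.08 for ECS over its 3 probe sets, and of the 6 probe sets of Ndufs8 only the brightest was below 0, at -0.15, while the others ran from 0.01 to 0.39.

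Complex II, assembly factors included, had the highest median among the multi-subunit complexes for ECS. Over its 4 subunits alone the ECS median was 0.13, against 0.11 for complex V and 0.10 for complex IV. All 7 of its genes had a log2 ratio above 0 with ECS, with a median of 0.19, and 5 of 7 with fluoxetine, with a median of 0.08. The ECS median was 0.14 with quantile normalisation and 0.08 in the deposited signals. Sdhc, an anchor subunit, had signals of 434.8, 514.2, 722.3 and 880.1 in the order sham, ECS, vehicle and fluoxetine, and log2 ratios of 0.35 and 0.16. Its log2 ratio of sham to vehicle was -0.23, so that the size for ECS was 0.12 when the vehicle array took the place of the sham array. The other anchor gene Sdhd had 0.19 and 0.16, but its second, dimmer probe set had -0.32 and 0.17 with -0.57 between sham and vehicle. Sdha, the flavoprotein that oxidises succinate, had 0.02 and -0.08 and Sdhb, the iron-sulphur subunit, had 0.07 and 0.08.

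The assembly factors of complex II had log2 ratios above those of both catalytic subunits with ECS, while with fluoxetine only Sdhaf2 did. Sdhaf2, which helps to attach the flavin to Sdha, had signals of 362.5, 391.3, 495.9 and 738.2 in the same order and log2 ratios of 0.22 and 0.45. Its level with fluoxetine was the highest, and in this probe set both treated arrays lay above both controls by at least 0.22. Its second, dimmer probe set had 0.15 and 0.13 with -0.21 between sham and vehicle. There the centred ECS level lay below that of vehicle. Sdhaf4, another factor for Sdha, had 0.32 and 0.07, and Sdhaf1, which serves Sdhb, had 0.14 and -0.17.

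Complex III genes lay in a narrow range. All 9 differed less than 1.2-fold in both comparisons, with a median log2 ratio of 0.09 for ECS (-0.02 in the deposited signals) and 0.06 for fluoxetine, and 8 and 6 of them were above 0. Uqcrb, a small subunit near the ubiquinone site, had signals of 7369.2, 7281.9, 9219.6 and 10244 and ratios of 0.09 and 0.03. Uqcrh, the hinge protein that binds cytochrome c1, had 0.18 and 0.19, and Uqcr11 had 0.21 and 0.06. Uqcrc2, a core protein, was the only gene of complex III below 0 in both, at -0.14 and -0.18, and its other probe set had 0.01 and -0.05.

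Cycs, which encodes somatic cytochrome c and is also known for its release in apoptosis, had signals of 3781.6 in the sham pool, 4193.3 with ECS, 5732.3 with vehicle and 7776.2 with fluoxetine. Both treated arrays lay above both controls after centring, with log2 ratios of 0.26 and 0.32 and one of -0.10 between sham and vehicle. Its other probe sets had 0.29 and 0.25, and 0.15 and 0.15, so that all 3 were above 0 in both comparisons. The last of these had -0.18 between sham and vehicle, and its centred ECS level lay below that of vehicle. The ratios of Cycs were 0.20 and 0.43 after quantile normalisation and 0.15 and 0.44 in the deposited signals. Cyc1, the cytochrome c1 of complex III that passes electrons on to it, had 0.02 and -0.07.

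Complex IV was the group whose medians had opposite signs in the 2 comparisons, at 0.10 with ECS and -0.10 with fluoxetine over 12 genes. With ECS 9 of 12 were above 0 and with fluoxetine 8 of 12 were below 0. With quantile normalisation the medians were 0.06 and -0.05, and in the deposited signals 0.00 and 0.02, where all genes had -0.10 and 0.12. Sham and vehicle themselves differed by a median of 0.09 for these genes, with 10 of 12 higher in the sham pool, and with control arrays exchanged the medians were 0.21 and -0.16. The difference between the 2 comparisons could not be tested with 1 array per group.

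Several subunits of complex IV come in tissue isoforms, and of 6 muscle, lung and testis forms on the array 4 stayed under the signal floor in the DG. Cox6a1, the widely expressed form, had signals of 7862.9, 7752.2, 9924.7 and 10080.4 in the order sham, ECS, vehicle and fluoxetine, and log2 ratios of 0.09 and -0.10. Cox6a2, known as the heart and skeletal muscle form, had 78.1, 64.4, 125.2 and 78.6, with log2 ratios of -0.17 and -0.80, a level 1.74-fold lower with fluoxetine than with vehicle. It was the lowest ratio of the set, and both treated arrays lay below both controls. The vehicle signal stood highest, however, and with the sham array as the control the fluoxetine ratio was -0.62. Parvalbumin interneurons are known to express Cox6a2 in brain. Pvalb, their marker, had log2 ratios of 0.45 and -0.20 and signals of 141.9, 179.5, 238.8 and 227.1, and its part in the Cox6a2 difference was not tested.

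The 4 genes under the floor were Cox7a1 with a mean signal of 47.25, Cox6b2 with 35.75, Cox4i2 with 19 and Cox8b with 10.375, and they were not compared. Cox7a1, the heart and muscle partner of Cox7a2, had signals of 24.7, 44.1, 36 and 84.2 in the order sham, ECS, vehicle and fluoxetine. Its fluoxetine signal alone exceeded 50. Cox8c, the testis form, passed with signals of 106.6, 113.7, 138.5 and 118.9 and had log2 ratios of 0.20 and -0.35. For Cox7c the only probe set past the floor had a mean signal under 200, and its ratios were -0.04 and -0.11.

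Among the widely expressed subunits Cox5a, which neighbours the catalytic core, had the most even pair of ratios. Its signals were 4429.7, 4749.6, 6190.2 and 7754.3, its log2 ratios 0.21 and 0.20, and its other 2 probe sets gave 0.12 and 0.17, and 0.19 and 0.18. Cox6b1 had 0.16 and 0.18, though its log2 ratio of sham to vehicle was 0.19. Cox4i1, the regulatory subunit that binds adenine nucleotides, had -0.09 and -0.14, and it was the only bright gene of complex IV below 0 in both comparisons. Cox6c had 0.03 and -0.09, and its second probe set -0.31 and -0.13. The remaining members of the isoform sets lay on either side of 0: Cox7a2 had 0.12 and 0.04, Cox8a 0.19 and -0.12, and Cox7a2l, which is known to join complexes III and IV, 0.07 and -0.14.

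**Figure D2:**
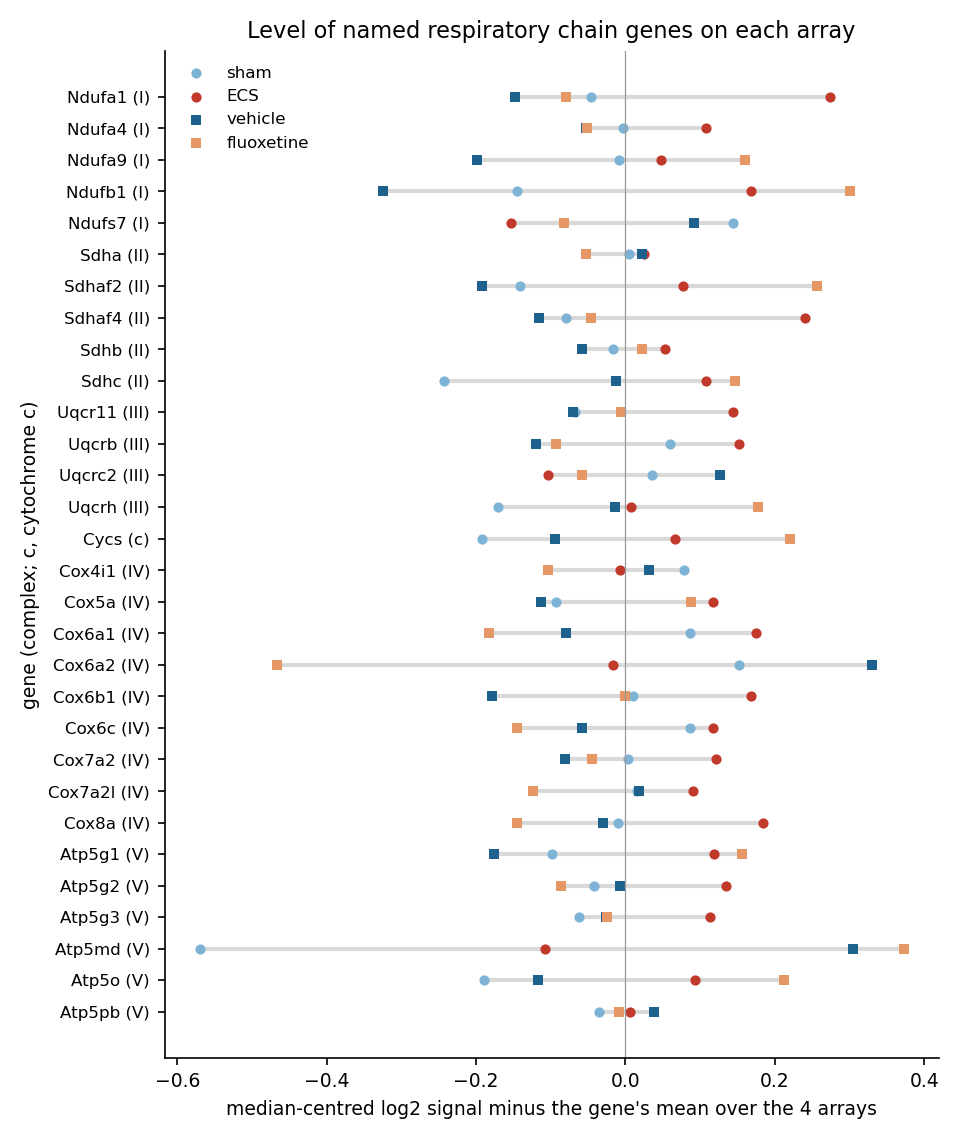
Median-centred log2 signal of 30 named respiratory chain genes on each of the 4 arrays (circles, sham and ECS; squares, vehicle and fluoxetine), as the difference from the gene's mean over the arrays, with the grey line from the lowest to the highest array. Among the genes with both treated arrays above both controls the gap is widest for Ndufb1, Sdhaf2, Atp5g1, Atp5o, Cox5a and Cycs, among those below it is widest for Ndufs7 and Cox6a2, and Atp5md differs mainly between its sham and vehicle arrays.

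Over the 17 genes of complex V the median log2 ratio was 0.11 for ECS (0.00 in the deposited signals) and 0.00 for fluoxetine, and 12 and 9 were above 0. Atp5o, the subunit that links the catalytic head to the stalk (the oligomycin sensitivity conferral protein), had signals of 2121.9 with sham, 2392.6 with ECS, 3161.7 with vehicle and 4330.6 with fluoxetine. Its log2 ratios were 0.28 and 0.33, and both treated arrays lay above both controls. Its second probe set had 0.04 and 0.26, so that the ECS difference was smaller there. With -0.19 between sham and vehicle, the centred ECS level of that probe set lay below that of vehicle.

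The genes Atp5g1, Atp5g2 and Atp5g3 encode the same mature protein, the c subunit of the rotor ring, with different import sequences. Atp5g1 had signals of 1419.6, 1530.3, 1905.4 and 2616.7 and log2 ratios of 0.22 and 0.33, and both treated arrays lay above both controls. Atp5g2 had 0.18 and -0.08, and Atp5g3 had 0.18 and 0.00. The ratios of the 3 genes were thus close to each other with ECS, while with fluoxetine that of Atp5g1 stood above the others by more than the spread of 0.13.

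Atp5md, a small subunit at the base of the enzyme, had the highest log2 ratio of the set with ECS at 0.46, from signals of 2255.1 with sham, 2882.3 with ECS, 5857.6 with vehicle and 6695.1 with fluoxetine. The untreated pools differed more than that, by -0.87, and with the vehicle array as the control the ECS ratio was -0.41, while with the sham array as the control the fluoxetine ratio was 0.94. Of the catalytic head, Atp5a1 had -0.03 and -0.12 and Atp5b 0.10 and -0.09. Of the central stalk, Atp5c1 had 0.11 and -0.09 and Atp5d 0.24 and 0.23 with 0.22 between sham and vehicle, and Atp5pb, the b subunit of the outer stalk, had 0.04 and -0.05.

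Since the comparisons share no array, the ratios of a gene in both were set side by side. Of the 85 genes, 43 were above 0 in both, 14 below 0 in both and 28 of opposite sign. Across these genes, which are not independent replicates and were read from the same arrays, the ratios correlated at a Spearman coefficient of 0.48, against 0.49 across all genes and 0.69 across bright genes. No gene was past 1.2-fold in opposite directions. The centred levels of both treated arrays were above those of both control arrays for 30 genes (35.3%), against 24.4% of all genes and 31.1% of bright genes. They were below for 8 genes (9.41%), against 23.1% of all genes and 20.6% of bright genes. These 8 were Ndufs7, Cox6a2, Ndufv1, Ndufa5, Uqcrc2, Cox4i1, Atp5a1 and Atp5l. The gap between the treated and the control arrays was under 0.05 on the log2 scale for 14 of the 30 and for 3 of the 8, which leaves 16 and 5 genes with a wider gap.

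**Figure D3:**
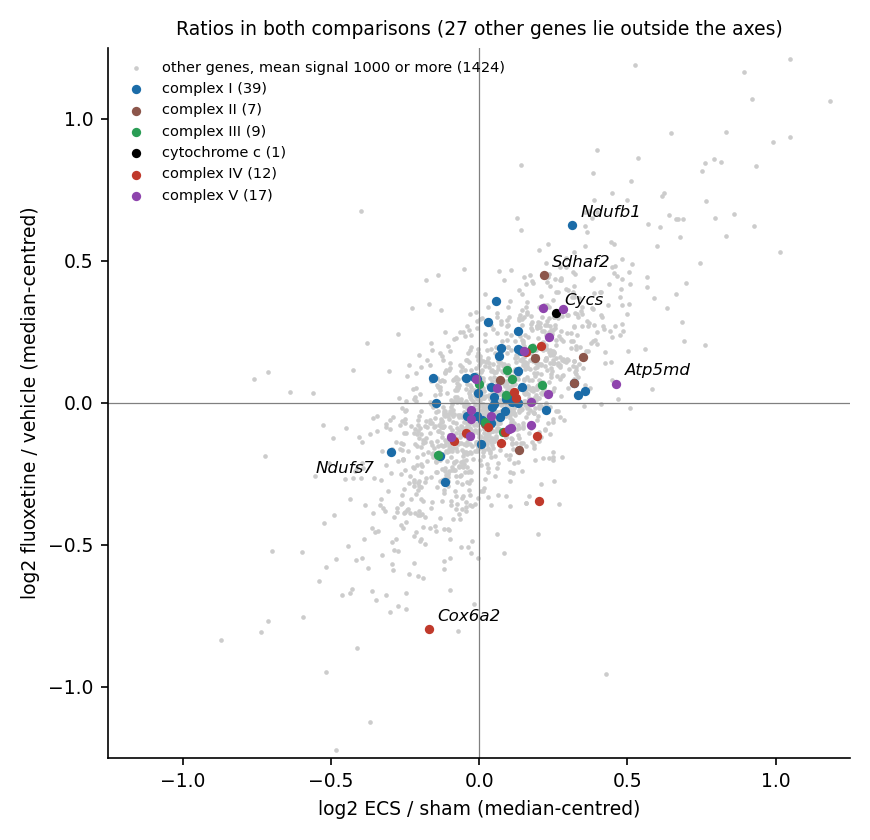
Centred log2 ratio for ECS over sham (horizontal) against fluoxetine over vehicle (vertical) for the 85 respiratory chain genes by complex, over 1424 other genes with a mean signal of at least 1000 (grey), of which 27 lie outside the axes. The respiratory chain genes lie close to the origin, within -0.30 to 0.46 with ECS and -0.80 to 0.63 with fluoxetine, while other bright genes extend along the diagonal.

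Several probe sets measured 43 of the genes, which gives a check within the arrays. The log2 ratios of 1 gene's probe sets ranged over a median of 0.12 for ECS and 0.11 for fluoxetine, and over 0.15 for sham against vehicle. The widest ranges were 0.55 for Ndufs8 with ECS and 0.43 for Ndufs4 with fluoxetine. All probe sets of a gene had the same sign for 32 of 43 genes with ECS, 25 with fluoxetine and 19 between the untreated pools. Ratios of about 0.1 are therefore within the disagreement of probe sets of the same transcript. For 17 genes the brightest probe set has a name ending that Affymetrix gives to probes shared with other transcripts, and their medians were 0.07 and 0.03, against 0.09 and 0.02 for the other 68.

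Genes that build the complexes, from lists written with earlier results of these data known, gave a few larger ratios. Their counts at 1.5-fold stand beside shares over all genes of 5.34% higher and 4.18% lower with ECS and 5.82% and 5.13% with fluoxetine. Of 15 measured genes for complex IV assembly and copper delivery, 1 was higher and 0 were lower at 1.5-fold in each comparison, and the medians were 0.07 and 0.00. The gene was Cmc2, with signals of 129.3, 195, 167.4 and 277.8 and log2 ratios of 0.70 and 0.61. Cox15, which makes haem a for complex IV, had 0.16 and 0.42, and Cox19, a copper chaperone, 0.28 and 0.22. Of 11 other assembly factors 0 passed 1.5-fold with ECS and 1 with fluoxetine, and the medians were -0.08 and 0.03. This gene was Bcs1l, which inserts the Rieske protein into complex III, with signals of 245.5, 211.1, 349.8 and 242.6 and ratios of -0.11 and -0.65. Ttc19, also of complex III assembly, had 0.14 and 0.53, and Timmdc1, of complex I assembly, 0.44 and 0.27 with 0.39 between sham and vehicle.

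Regulators of mitochondrial biogenesis had medians of -0.08 with ECS and -0.02 with fluoxetine over 17 measured genes. At 1.5-fold 1 was lower with ECS and 0 passed with fluoxetine. The 1 was Ppargc1b, a coactivator of mitochondrial genes, named after its value was seen, with signals of 281.8, 170.7, 484.3 and 583.2 and log2 ratios of -0.61 and 0.14. The related Ppargc1a had 0.20 and 0.04, and Tfam, which packages mitochondrial DNA, -0.15 and -0.03. Gabpa, the DNA-binding subunit of GABP, had -0.34 and -0.31, while its partner Gabpb1 had 0.07 and 0.47. Yy1 had 0.01 and 0.26, and Nrf1 was not measured. By the rule for named genes, Polg2, the accessory subunit of the mitochondrial DNA polymerase, had -0.21 and -0.53, Nfe2l2, an oxidative stress regulator, 0.16 and 0.57, and Tfb2m, a mitochondrial transcription factor, -0.26 and -0.44.

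**Figure D4:**
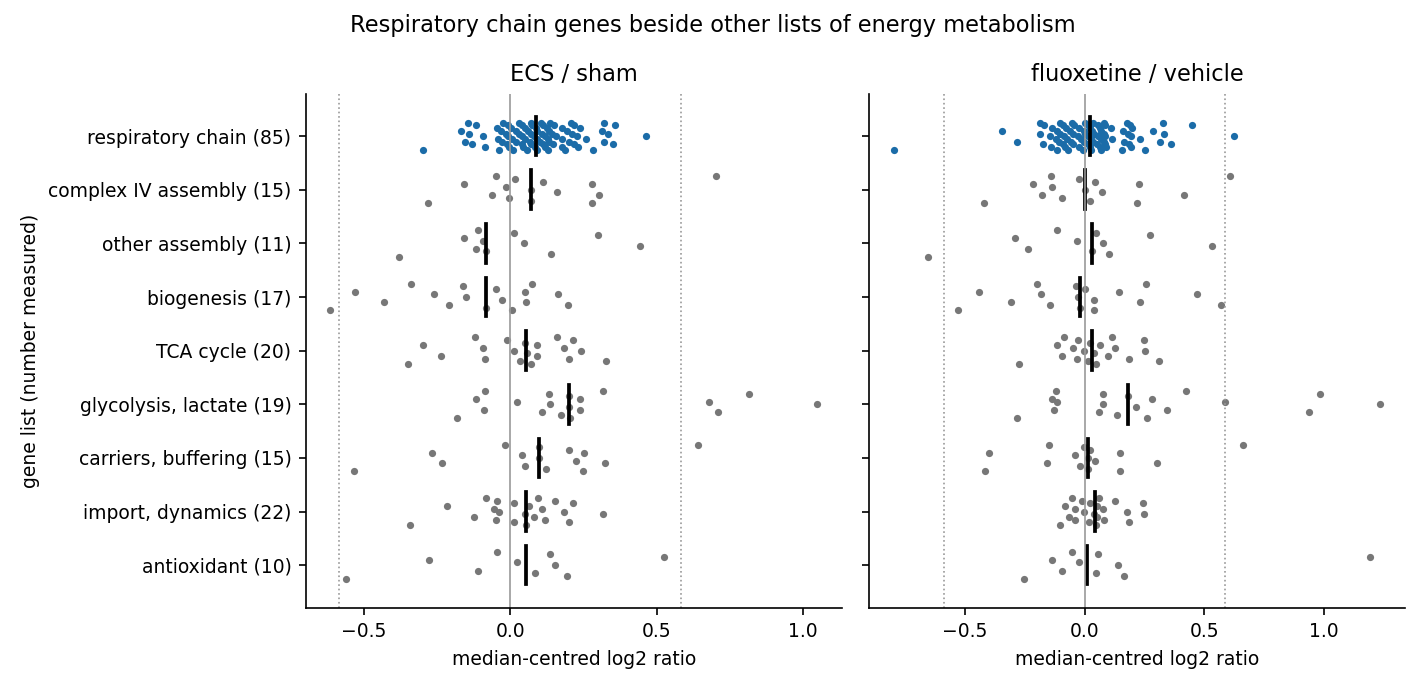
Centred log2 ratios of the respiratory chain genes (blue, 85 genes) and of 8 other lists of energy metabolism and mitochondria (grey, number measured in brackets) for ECS over sham and fluoxetine over vehicle, with medians as bars and 1.5-fold as dotted lines. The respiratory chain has medians of 0.09 and 0.02 and the glycolysis list 0.20 and 0.18, and with signals as deposited the respiratory chain median for ECS is -0.02.

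The tissue was checked against markers of its cell types, with counts read beside the same shares over all genes. Of 10 granule cell markers 6 were measured, and 3 were lower at 1.5-fold with ECS and 5 with fluoxetine. Their medians were -0.58 and -1.32, and their summed signals 7346.6, 3421, 10837.7 and 3613.5 over sham, ECS, vehicle and fluoxetine. Prox1, also measured, had log2 ratios of -0.08 and 0.09. The study describes Calb1 and Tdo2, both on the list, as markers of mature granule cells. By immunostaining of protein the day after repeated ECS, it found the neuronal marker NeuN unaffected. Markers of immature granule cells had medians of 0.72 and 0.38 over 10 genes, with 6 and 4 higher and sums of 6770.1, 7972.1, 9276.3 and 11257.6. Not all of them were above 0: Neurod1 had log2 ratios of -0.16 and -0.18, Stmn1 0.25 and -0.20, and Eomes -0.08 and 0.15. Medians were 0.33 and 0.14 for 8 CA3 and CA1 pyramidal cell markers (sums 1490 to 3607.6), 0.29 and 0.17 for 9 of interneurons (6508.3 to 17063.3), 0.13 and 0.21 for 10 of astrocytes (15272.6 to 25205.4), -0.06 and 0.27 for 10 of microglia (4605.7 to 9597.7), 0.01 and -0.01 for 9 of oligodendrocytes (10419.9 to 15923.9) and 0.19 and -0.03 for 8 of endothelial cells (1018.4 to 1578). Each range of sums runs from the lowest to the highest of the 4 arrays, in deposited signals without a common level. Among the interneuron markers Npy had signals of 757, 4977.7, 870 and 7521.9 over sham, ECS, vehicle and fluoxetine. Lhx6 had log2 ratios of -0.17 and -0.10, and Slc32a1 had -0.02 and 0.20. Choroid plexus markers were nearly absent, with 2 of 10 measured and Ttr at a mean signal of 16.9. The part of these cell types in the respiratory chain ratios was not tested, and in pooled tissue fewer cells of a type and less RNA per cell cannot be told apart.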

How the data were processed

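RNA of the DG of sham, ECS, vehicle and fluoxetine mice was measured on 4 arrays, 1 per group, grouped by the sample labels. The authors computed the deposited signal intensity of each probe set with MAS5 (Affymetrix Microarray Suite), which combines perfect-match and mismatch probes, on a linear scale without a common level. The authors' change calls were not used.

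Here, signals were log2-transformed (a signal of 0 taken as 0.1), 64 control probe sets were left out with all whose mean signal lay below 50, and each array was centred on its median over the remaining 13422 probe sets. The brightest probe set with 1 symbol in the platform annotation stood for a gene, and 8 probe sets with several symbols, 1 of them of a respiratory chain gene, were not used. Symbols and promoters came from RefSeq (GRCm38.p6), and all 85 symbols were current. Python 3.11.15, numpy 2.4.6, pandas 2.3.3 and matplotlib 3.10.9 were used, and the steps were tested on simulated data. Without replicates no test was run, and the number of arrays limits the precision. Differences were described by a size rule of 1.5-fold and 1.2-fold, beside the share over all genes. Genes are named where they passed 1.5-fold, were among the 3 largest mean ratios or 2 brightest of a complex, belonged to an isoform set, or were among the 3 largest of another list. Other genes were named after their values were seen: all others among those past 1.2-fold, below both controls or given as partners of a named gene, cell type markers or factors of the searched motifs. The genes and lists were chosen with earlier results of these data known. Alternatives were the scaling, the floor, the probe set per gene, a pseudocount of 16, exchanged control arrays and the size rule.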

Additional observations from a re-analysis of the deposited data

How the results depend on the processing

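No paired analysis was possible because each group has 1 array, and for the same reason no replicate could be left out. At 1.5-fold with ECS, the count higher was 1 when 1 array at 50 sufficed and 2 without a floor, where 1 was lower. At 1.5-fold with fluoxetine, the count higher was 2 under both of these settings. It was 0 with a floor of 200, a pseudocount of 16, only genes with a mean signal of at least 1000 (added after seeing the data) or a 2-fold rule instead. The count lower was 2 without a floor and 0 with a floor of 200, only bright genes or a 2-fold rule instead. The gene added when 1 array at 50 sufficed was Cox7a1. It entered only through its fluoxetine signal of 84.2, so its count as higher with fluoxetine is no separate result. At 1.2-fold with ECS, the count higher was 1 without centring, 5 with quantile normalisation, 13 with control arrays exchanged and 5 among bright genes, and the count lower was 2 without centring, 3 without a floor, 0 with the mean over probe sets and 3 with control arrays exchanged. At 1.2-fold with fluoxetine, the count higher was 19 without centring, and the count lower was 1 without centring, with a floor of 200 and among bright genes. Without centring, 36 genes were above 0 with ECS and 75 with fluoxetine. The cause was not tested, except that a stricter floor or the bright genes alone leave fewer genes (81 and 73 of 85). Among 60 ratios of 30 named genes, 20 moved by more than 0.13 with control arrays exchanged, 3 with the mean over probe sets and 0 with quantile normalisation. Exchanging the control arrays shifts both ratios of a gene by the size of its sham to vehicle ratio. The 20 are therefore pairs from the same genes and not separate outcomes. Leaving out centring shifts all ratios of a comparison by 1 constant, so it is no check of single genes. With control arrays exchanged the count higher at 1.5-fold with fluoxetine stayed at 1, but the gene was Atp5md (0.94) and no longer Ndufb1 (0.45). None of the named ratios past 1.5-fold turned its sign under any alternative run. Signals near the floor, as for Cox6a2 and Ndufb1, are the least precise.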

Other observations

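Of 19 measured genes of glycolysis and lactate transport, 4 were higher at 1.5-fold with ECS and 3 with fluoxetine, 0 were lower in either, and the median log2 ratios were 0.20 and 0.18. Over all genes 5.34% were higher and 4.18% lower with ECS, and 5.82% and 5.13% with fluoxetine, and the counts of the lists below stand beside the same shares. Pfkp, a form of the rate-setting enzyme phosphofructokinase, had signals of 623.5 with sham, 1196.5 with ECS, 901.9 with vehicle and 1879.5 with fluoxetine, and log2 ratios of 1.05 and 0.93. Hk2, a hexokinase that binds to mitochondria, had signals of 59.5, 90.3, 113.3 and 290.6 in the same order, with ratios of 0.71 and 1.23. Ldha, the lactate dehydrogenase subunit that favours lactate formation, had 1324.3, 1966.7, 1869.3 and 3057.1, with ratios of 0.68 and 0.58. For these 3 genes both treated levels lay above both controls after centring.

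The citric acid cycle, mitochondrial import and carrier lists had medians closer to 0 than the glycolysis list. Of 20 genes of the citric acid cycle and pyruvate dehydrogenase 0 passed 1.5-fold in either comparison, with medians of 0.05 and 0.03. Ogdh had 0.21 and 0.31, Idh3a 0.33 and 0.12, and Idh3b, a partner of Idh3a in the same enzyme, -0.30 and -0.09. Of 22 genes of import and dynamics 0 passed, with medians of 0.05 and 0.04. Of 15 carrier and energy buffering genes 1 was higher in each comparison, Higd1a, a hypoxia-induced protein that associates with the respiratory chain, with signals of 818.8, 1184.5, 1275.8 and 2200.5 and ratios of 0.64 and 0.66. In that list Ak4 had -0.27 and -0.40 and Ckmt1, the mitochondrial creatine kinase, -0.23 and -0.41. Of 10 antioxidant enzymes 1 passed with fluoxetine and 0 with ECS, and this was Cat, the catalase of peroxisomes, with signals of 598.2, 798.7, 1017.8 and 2529.6 and ratios of 0.53 and 1.19. These values come from 1 array per group and no test was run.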
